A study of Mus musculus with 10 samples.

Results

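The transcripts described here are those of the m6A writer machinery, 10 mouse genes chosen by name: Mettl3, Mettl14, Wtap, Virma, Zc3h13, Rbm15, Rbm15b, Cbll1, Mettl16 and Pcif1. Of these, 8 appear in the deposited m6A peak lists, among 8516 genes named there in all. The lists come from m6A-seq of polyadenylated RNA from mouse brain (labelled cortex/hippocampus, postnatal day 5). Fragments carrying N6-methyladenosine (m6A) are pulled down with an antibody (IP), and stretches of transcripts that gain reads over the input RNA become peaks. One group was wild-type (WT; 3 IP and 3 input libraries) and the other lacked Mettl14 through a Nestin-Cre driven knockout (KO; 2 IP and 2 input libraries). Nestin-Cre acts in the neuroepithelial lineage of neurons, astrocytes and oligodendrocytes, so microglia, vessel and blood cells of the same tissue keep the gene. The labels also give a culture medium, and they do not settle whether cells were cultured before RNA was extracted. Each genotype is represented by a single consensus list, so the difference between genotypes has no replicate error and no test, and every share below describes these 2 lists. Library depth is unknown here, and a peak list holds no expression level, so fewer listed peaks and less RNA of a gene cannot be told apart. Positions refer to the mouse build GRCm38 and count from 1.

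Most m6A on messenger RNA is written in the nucleus by a complex built around METTL3, the subunit that transfers the methyl group, and METTL14, a catalytically inactive partner that holds the RNA. WTAP, VIRMA, ZC3H13, the ubiquitin ligase CBLL1 (also called HAKAI) and the paralogous RNA-binding proteins RBM15 and RBM15B join this core. Together they place it in nuclear speckles and guide it to its targets. METTL16 and PCIF1 work apart from the complex. METTL16 methylates U6 small nuclear RNA and hairpins in the transcript of the S-adenosylmethionine synthetase gene Mat2a, and PCIF1 methylates the adenosine next to the cap to give m6Am, which antibodies against m6A also bind. The messages of these proteins can themselves carry m6A, and the peaks on them are what was measured.

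In WT, 8 of the 10 genes carried a peak, 16 peaks in all over 5994 exonic bases. For comparison, 34.3% of all RefSeq protein-coding genes had a WT peak, a background that includes genes silent in brain. In the KO list, peaks were found in 2 of the 10 genes, Zc3h13 and Rbm15b, with 6 peaks over 1711 exonic bases, and 12.2% of protein-coding genes had a KO peak. A WT peak is called retained when it shares 1 or more exonic bases with a KO peak of the same strand, and lost otherwise. Of the 16 WT peaks, 5 were retained (31.2%, Wilson 95% interval 14.2 to 55.6) and 11 were lost. Over all 15009 WT peaks, 12.9% were retained. When 50% of a WT peak had to be covered, 2 of the 16 were retained (12.5%), both in Zc3h13, and 6.83% of all WT peaks. With 50% of both peaks shared, 1 was retained (6.25%), against 6.26% of all WT peaks. Retention reached 2 of the 8 genes (25%, interval 7.15 to 59.1), close to 20.6% over all 7717 genes marked in WT, of which 27.0% had a KO peak at any place. The intervals cover counting error, and peaks of a gene share their transcript and are not independent.

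**Figure D1:**
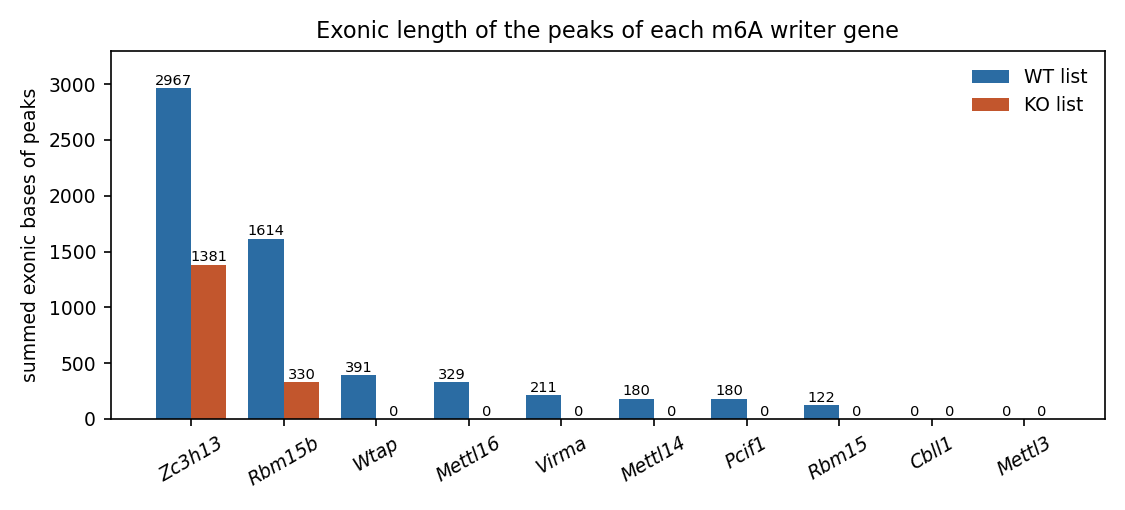
Summed exonic bases of the peaks of each m6A writer gene in the WT list (blue) and the KO list (orange), 1 list per genotype and no error bars. Zc3h13 and Rbm15b hold the longest peak territory in WT and are the genes with any in KO, and Cbll1 and Mettl3 stand at 0 in both.

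The peak territory was uneven among the genes. Zc3h13 and Rbm15b together held 4581 of the 5994 WT bases (76.4%), and all KO bases. The other 6 genes with a WT peak shared 8 peaks, each of 61 to 391 exonic bases and each in a single exonic block. KO peaks came to 28.5% of the WT exonic length over the writer genes and to 16.6% over all genes.

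The core heterodimer carried little listed m6A. Mettl3 had no peak in either list, and no peak of any other gene name lay inside its span on chromosome 14 (52294841 to 52308741). Mettl14 had a single WT peak of 180 bases (chromosome 3, 123369398 to 123369577), in a gene of the minus strand that runs from 123368295 to 123385990. The peak ended 1103 bases before the gene end, with its midpoint at 93.3% of the gene span. Its listed p-value was 7.9e-11, and 88.3% of all WT peaks were listed as at least as strong, so it belonged to the weakest of 5 equal classes of strength. In that class 3.53% of all WT peaks were retained (interval 2.93 to 4.25), and the Mettl14 peak was lost. The labels do not say which exons the knockout removes, so the missing KO peak is no check of the deletion.

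Among the genes of the other subunits, Wtap and Virma lost the peaks they had. Wtap, which encodes the regulatory subunit that anchors the heterodimer in speckles, had a WT peak of 391 bases (chromosome 17, 12967577 to 12967967, minus strand), 778 bases before the end of its gene. It was wider than 83.2% of all WT peaks and had a listed p-value of 1.3e-75, in class 2 of strength, where 14.0% of WT peaks were retained. Of the 1894 WT peaks at least as strong and as wide, 38.8% were retained, and that of Wtap was not. This set also holds much stronger and wider peaks, so its share is not that of peaks alike. Virma, which encodes a large scaffold of the complex, had 2 narrow WT peaks in the middle of its gene on chromosome 4. The first, of 90 bases, ran from 11513289 to 11513378 (listed p-value 3.2e-28) and the second, of 121 bases, from 11519121 to 11519241 (1.3e-38). Their midpoints stood at 42.0% and 51.0% of a gene span of 65186 bases, and the second ended 31902 bases before the gene end. Neither was retained. The ubiquitin ligase gene Cbll1 had no peak in either list, and no peak under another name lay in its span on chromosome 12 (31484829 to 31500676).

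Zc3h13, which encodes a zinc finger protein that bridges WTAP to RBM15 and holds the complex in the nucleus, had the most peaks of the writer genes in both lists. There were 5 WT peaks over 2967 bases and 4 KO peaks over 1381 bases, all on the plus strand of chromosome 14 in a gene that runs from 75284306 to 75344433. Among genes with a WT peak 5.30% had 5 or more, and among genes with a KO peak 2.29% had 4 or more. All 9 peaks lay downstream of the middle of the gene, with midpoints between 52.7% and 98.8% of its span. Retention touched 3 of the 5 WT peaks, and of the 226 genes with exactly 5 WT peaks 17 had 3 or more retained (7.52%, interval 4.75 to 11.7).

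**Figure D2:**
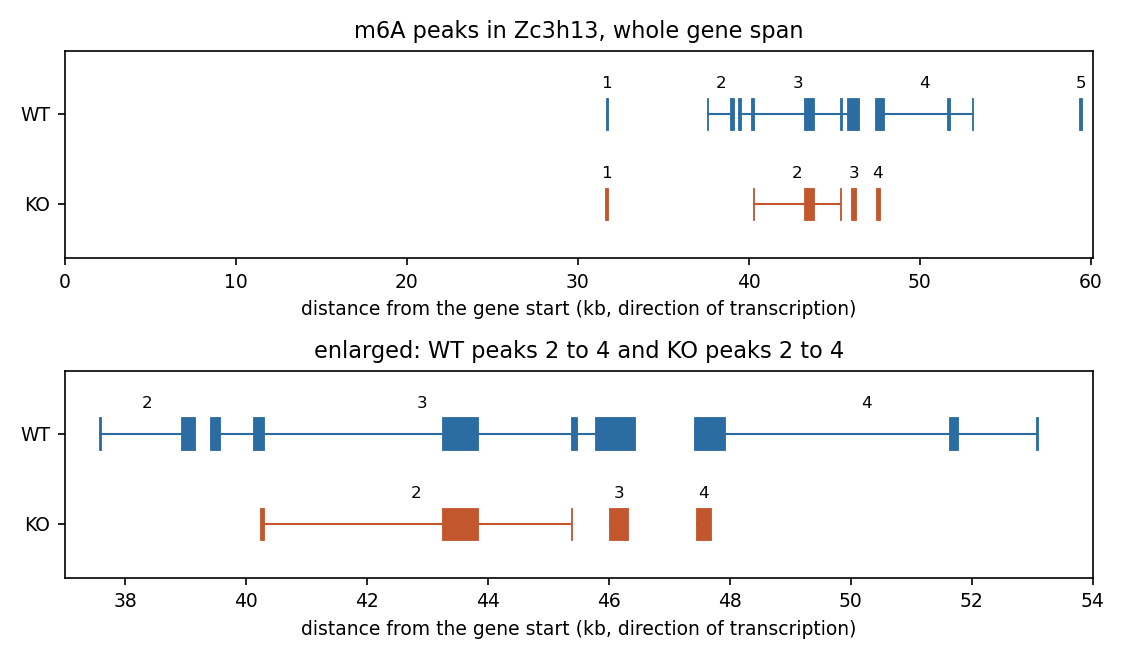
Peaks of Zc3h13 in the WT list (blue) and the KO list (orange), drawn to scale as distance from the gene start in kb, with boxes for exonic blocks, thin lines for the skipped introns and peak numbers above. The upper panel shows the whole gene and the lower one the stretch from WT peak 2 to WT peak 4, where KO peaks 2, 3 and 4 sit inside WT peaks 3 and 4.

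The centre of this signal was WT peak 3, which ran from 75323698 to 75330730 over 5 exonic blocks of 177, 192, 601, 104 and 662 bases. Its 1736 exonic bases made it wider than 99.9% of WT peaks, and its score was listed as 0, too small to be held. Peaks of 5 or more blocks made up 1.86% of the WT list. The KO list covered 990 of these bases (57.0%) with 2 separate peaks. KO peak 2, from 75324535 to 75329691, had 3 blocks of 70, 601 and 18 bases and a score also listed as 0, as for 80 of the 3673 KO peaks. Its middle block, from 75327544 to 75328144, had the same borders as that of the WT peak. These borders lie at skipped introns, so their match says little about the signal. KO peak 3, from 75330311 to 75330611, covered 301 bases inside the last WT block, with a listed p-value of 6.3e-24. The first WT block and parts of WT blocks 2, 4 and 5 were without a KO peak. A WT peak lay over 2 or more KO peaks in 153 of the 1933 retained cases (7.92%).

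WT peak 4 of Zc3h13, from 75331715 to 75337401, had 3 blocks of 504, 153 and 32 bases, 689 in all, and a listed p-value of 1e-314. KO peak 4, from 75331745 to 75331984, covered 240 of them (34.8%), all in the first block, with a listed p-value of 4e-38. It began 30 bases after the WT peak, and the 2 downstream blocks had no KO signal listed. WT peak 2, from 75321870 to 75323458, was lost although it was strong. Its 270 bases lay in 2 blocks with a listed p-value of 1e-151, in the strongest class, where 30.9% of WT peaks were retained (interval 29.3 to 32.6). WT peak 5, of 181 bases from 75343649 to 75343829, lay 604 bases before the gene end (1.6e-31) and was lost as well. Across the gene, KO peaks began 31597 bases from the gene start and ended 12449 bases before the gene end, whereas WT peaks reached to 604 bases before it.

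The small WT peak 1 of Zc3h13 went the other way. It measured 91 bases, from 75315963 to 75316053, with a listed p-value of 2.7e-08, so 94.6% of WT peaks were listed as at least as strong. KO peak 1 measured 151 bases, from 75315903 to 75316053, with a listed p-value of 1e-18. Both ended at the same base, and the KO peak reached 60 bases further upstream. The KO peak was therefore both wider and lower in listed p-value than its WT counterpart. Among the 1763 pairs in which 1 WT and 1 KO peak overlapped each other and no other peak, 82 were of this kind (4.65%). Whether p-values of the 2 lists are on an equal footing is not known, since the lists come from 3 and 2 IP libraries of unknown depth.

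The RBM15 paralogs, RNA-binding proteins of the SPEN family that recruit the complex to RNA, differed in their peaks. Rbm15 had 2 WT peaks of 61 bases each on the minus strand of chromosome 3, from 107331669 to 107331729 (7.2e-07) and from 107330980 to 107331040 (3.2e-21). Peaks of at most 61 bases, near the narrowest width listed (58 bases), made up 9.11% of the WT list. They stood at 9.54% and 11.9% of the gene span, and neither was retained. Rbm15b had 3 WT peaks over 1614 bases in a gene of 6148 bases on chromosome 9 (106880928 to 106887075, minus strand). This is 4.88 peaks per 10 kb of gene span, against 0.691 in Rbm15, whose span is 28950 bases. Spans include introns, so these figures are not densities along the messenger RNA. Retention in Rbm15b touched 2 of its 3 peaks, and of the 950 genes with exactly 3 WT peaks 67 had 2 or more retained (7.05%, interval 5.59 to 8.86).

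**Figure D3:**
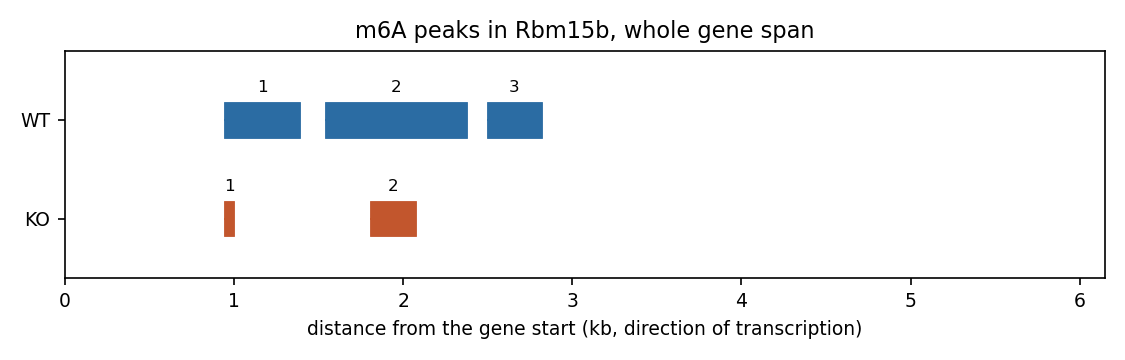
Peaks of Rbm15b in the WT list (blue) and the KO list (orange), drawn to scale as distance from the gene start in kb in the direction of transcription. The 2 KO peaks lie inside WT peaks 1 and 2, and WT peak 3 has no counterpart.

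In the direction of transcription, the first Rbm15b WT peak ran from 106886134 down to 106885687, over 448 bases with a listed p-value of 7.9e-49. The KO peak within it kept the upstream border at 106886134 and covered 60 bases (13.4%), with a listed p-value of 1.6e-13. That width is near the narrowest of the KO list (59 bases). The second WT peak, of 837 bases from 106885537 down to 106884701, had a score listed as 0 and was wider than 97.2% of WT peaks. Its KO counterpart, from 106885269 down to 106885000, covered 270 bases (32.3%) near the middle, with a listed p-value of 2.5e-37. Neither Rbm15b peak counts as retained when 50% of the WT peak has to be covered. Of the 764 WT peaks with a score listed as 0, 51.2% were retained, and Zc3h13 peak 3 and Rbm15b peak 2 were both among these. Of the WT peaks at least as strong and as wide as Zc3h13 peak 3, 11 of 11 were retained (interval 74.1 to 100). The same share was 77.1% for Rbm15b peak 2 and 70.9% for Zc3h13 peak 4. WT peak 3, of 329 bases from 106884582 down to 106884254, had a listed p-value of 1e-272 and was lost. Of the 767 WT peaks at least as strong and as wide as that peak, 54.5% were retained (interval 51.0 to 58.0). Such sets can count the peak itself and also hold stronger or wider peaks, so these shares are not those of peaks alike.

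The enzymes that act apart from the complex carried 1 WT peak each and none in the KO list. The Mettl16 peak measured 329 bases on chromosome 11 from 74817319 to 74817647, on the plus strand at 83.3% of the gene span, with a listed p-value of 4e-73. The Pcif1 peak measured 180 bases on chromosome 2 from 164891021 to 164891200, on the plus strand and 240 bases before the gene end, with a listed p-value of 2.5e-42. The predicted gene Gm46775 overlaps the same stretch, and it is the sole other RefSeq gene over any of the 16 WT peaks. Of all genes with exactly 1 WT peak, as in Mettl14, Wtap, Mettl16 and Pcif1, 10.5% had it retained, and of all genes with exactly 2, as in Virma and Rbm15, 22.7% had at least 1 retained.

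**Figure D4:**
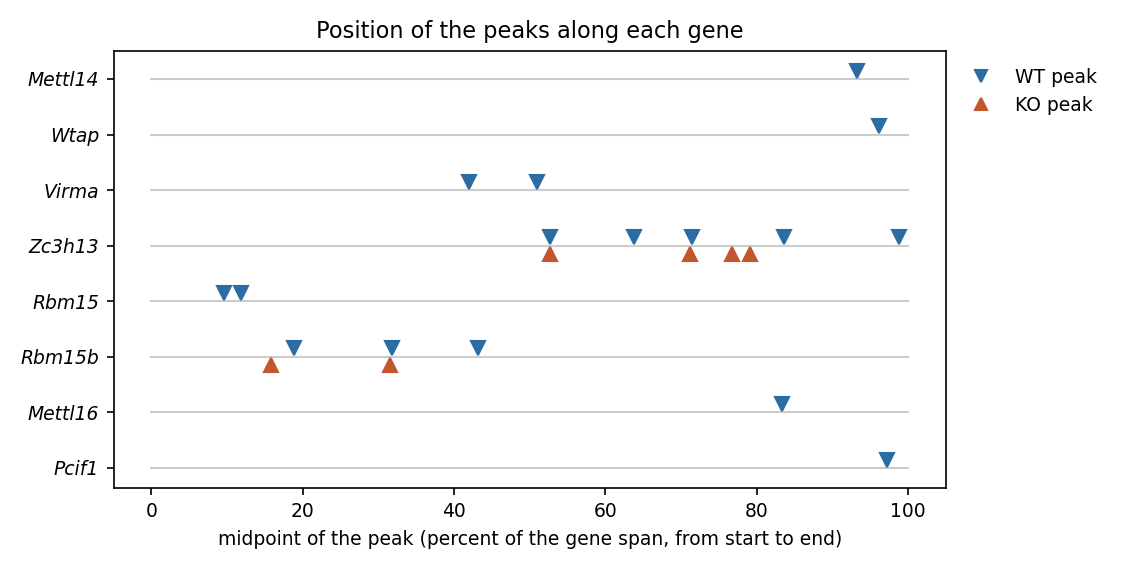
Midpoint of each peak of the 8 writer genes with a peak, in percent of the gene span from start to end, introns included. WT peaks are blue and KO peaks orange triangles. Peaks of Mettl14, Wtap, Mettl16 and Pcif1 sit at 83.3% or later, those of Rbm15 and Rbm15b before 50%, and those of Zc3h13 from 52.7% on.

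Position along the gene varied among the members. Of the 16 WT peaks, 6 had their midpoint in the last 25% of the gene span and 6 in the first 50% (37.5% each), against 56.4% and 28.0% of all WT peaks. Gene spans include introns and no exon annotation was used, so these shares do not give positions along the messenger RNA. Within 1000 bases of the gene end lay 3 of the 16, those of Wtap and Pcif1 and peak 5 of Zc3h13 (18.8%, against 15.9% of all WT peaks). None of these 3 was retained, but neither were most WT peaks anywhere (12.9% retained), so this count says little about the gene end. All 6 KO peaks overlapped a WT peak, compared with 57.1% of all KO peaks, so no writer gene had a KO peak at a site unmarked in WT. Of the 6, 5 lay wholly inside a WT peak, as did 76.4% of the KO peaks that overlapped any WT peak.

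**Figure D5:**
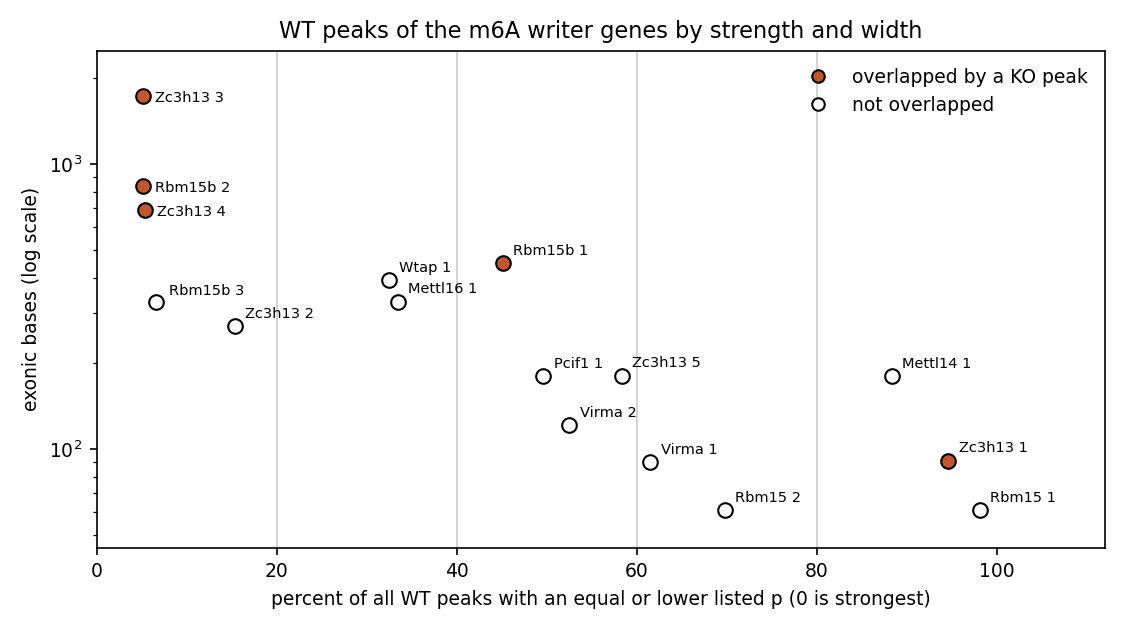
The 16 WT peaks of the writer genes, each labelled by gene and peak number, by the percent of all WT peaks with an equal or lower listed p-value (0 is strongest, grey lines mark the 5 classes) and by exonic width in bases on a log scale. Filled points were overlapped by a KO peak. The filled points are the 4 widest peaks and Zc3h13 peak 1, which is among the weakest.

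The strongest and widest peaks held most of the retained ones. Of the 5 peaks in the strongest class 3 were retained, Zc3h13 peaks 3 and 4 and Rbm15b peak 2. Class 2 held 2 peaks and none retained, class 3 held 4 peaks with 1 retained, class 4 held 2 with none, and the weakest class held 3 with 1 retained. From the strongest class to the weakest, the shares over all WT peaks were 30.9%, 14.0%, 9.49%, 6.40% and 3.53%. The retained peaks had a median of 689 exonic bases and the lost ones of 180. A longer peak can be overlapped at more bases, and the part of width in retention was not tested. In Zc3h13 and Rbm15b the KO exonic length was 46.5% and 20.4% of the WT length, against a median of 33.4% (quartiles 18.3 and 54.6) over the 1588 genes with a retained peak.

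Related genes are given as counts without a test, to be read against 34.3% of protein-coding genes with a WT peak, 20.6% of WT-marked genes with a retained peak and 12.9% of WT peaks retained. The transcript of Spen, which encodes a large transcriptional repressor related to RBM15 and RBM15B, had 14 WT peaks over 5863 bases, of which 3 were retained, and 4 KO peaks. Cblb, a ubiquitin ligase gene listed with it, had 1 WT peak, not retained, and 2 KO peaks elsewhere. The m6A reader list had WT peaks in 8 of 12 genes (66.7%) and retained peaks in 5 of these (62.5%). These were Prrc2a (4 of 7 peaks), Ythdc1 (2 of 4), Hnrnpa2b1 and Fmr1 (1 of 2 each) and Hnrnpc (1 of 1). Ythdf1, Ythdf2 and Ythdf3 retained none of 3, 2 and 3 peaks. Fmr1, Hnrnpc, Ythdf2 and Ythdf3 are named to complete these counts, after their values were seen. Both m6A demethylase genes had WT peaks, 4 in Alkbh5 and 1 in Fto, and none was retained, although Alkbh5 had 1 KO peak elsewhere. Of 29 genes for other RNA methyltransferases, 9 had a WT peak (31.0%), 14 peaks in all, and none was retained, among them Ftsj3 (3 peaks), which encodes a ribosomal RNA methyltransferase, the transfer RNA methyltransferase subunit gene Trmt6 (2) and the cap methyltransferase gene Cmtr2 (2). This list also held 2 KO peaks outside WT peaks, in Mettl4 (91 bases) and Trmt10a (361 bases), named here after their values were seen.

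The genes of the S-adenosylmethionine cycle, which supplies the methyl donor of all these enzymes, were also examined. Of 11 genes, 2 had a WT peak (18.2%), Mat2a and Ahcyl2 with 1 each, and the Mat2a peak was retained. Mat2a encodes the synthetase of the donor and is a substrate of METTL16. Its WT peak of 151 bases lay on chromosome 6 (72439406 to 72439556, minus strand), with a listed p-value of 4e-92. The KO peak covered 121 bases of it, from 72439436 to 72439556, with a listed p-value of 2e-21. Both peaks began at the first base of the gene, and no other peak was listed in it. The WT peak ended 6610 bases before the gene end and the KO peak 6640 bases before it. The METTL16 hairpins were not located here, and whether METTL16, PCIF1 or another enzyme wrote this signal was not tested.

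The genes most like Zc3h13 and Rbm15b were sought by equal numbers of WT, retained and KO peaks and by the nearest WT exonic length. Chd3, a chromatin remodeler gene on chromosome 11, was the sole gene with the numbers of Zc3h13 (5 WT, 3 retained and 4 KO peaks), with 2642 WT and 1832 KO bases. For Rbm15b (3, 2 and 2 peaks), 38 genes had equal numbers, and the nearest in length were the neuronal transcription factor gene Bhlhe22 (1613 WT and 508 KO bases), Gm42372 (1591 and 781) and the splicing factor gene Hnrnpm (1670 and 448). The likeness rests on 1 list per genotype.

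Cell type markers could be examined through their peaks alone, beside 34.3% of protein-coding genes with a WT peak and 12.2% with a KO peak. Without expression levels, these counts do not measure which cells were present. Of 11 neuron markers 7 had a peak in both lists. Astrocyte markers had a WT peak in 5 of 5 genes and a KO peak in 4, and oligodendrocyte lineage markers in 5 of 6 and in 1. Of the cells outside the Nestin lineage, microglia markers had a WT peak in 4 of 6 genes and a KO peak in 2 (Cx3cr1 and Siglech), vessel markers in 5 of 6 and in 2, and blood markers in 0 of 3. The part of such cells, which keep Mettl14, in the KO peaks of Zc3h13 and Rbm15b was not tested.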

How the data were processed

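Per the labels, RNA was extracted with Trizol, an anti-m6A antibody was used for the IP samples, and libraries were stranded. STAR and GRCm38 are named in the submitters' processing notes. No source used here gives the peak caller, its thresholds or how libraries were combined. The authors deposited 2 consensus peak lists in BED format. The deposited score, at most 0.00015 in WT and 4.4e-06 in KO, was taken for a p-value or q-value (which is unstated) and printed as the listed p-value. It serves to rank peaks within a list. The weakest listed score differs between the lists, so they may end at unlike levels. The part of this in the lost peaks was not tested.

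Within a list, same-strand entries with shared exonic bases were joined (15091 WT entries to 15009 peaks, 3733 KO entries to 3673). Coordinates are GRCm38, counted from 1. Gene spans came from a RefSeq table of the same build, which held 99.9% of the gene names in WT and 99.8% in KO. The overlap step was tested on simulated peaks. Python 3.11.15 and scipy 1.17.1 were used.

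The members and gene lists were chosen with earlier results of these data known. All 10 members are named; in each related list the genes with most WT peaks and most retained peaks (up to 3 each), and up to 3 genes with the same numbers as each member with a retained peak. Alternatives covered the overlap rule, strand, spans, merging, strength, list length and the window at the gene end. Peak sequences and exon annotation were not used here.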

Additional observations from a re-analysis of the deposited data

How the results depend on the processing

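No paired analysis was possible because each genotype has 1 pooled list, which also left no replicate to leave out. The 5 retained WT peaks, 3 in Zc3h13 and 2 in Rbm15b, stayed at these counts without regard to strand, with introns included, with gaps of up to 100 bases and without merging. With 50% of the WT peak covered, 2 of 16 peaks in 1 gene were retained, both in Zc3h13 (6.83% over all WT peaks), and with 50% of both peaks shared 1 of 16 in 1 gene, again Zc3h13 (6.25%, against 6.26%), so retention in Rbm15b rests on partial overlap. With the stronger 50% of each list, 5 writer genes had a WT peak, 3 of 9 peaks were retained (33.3%, against 14.1%), and KO length was 31.7% of WT length in place of 28.5%. When as many WT peaks were kept as the KO list holds, strongest first, 2 genes had a WT peak, 3 of 5 peaks were retained (60%, against 28.6%), and KO length was 44.3% of WT (39.6% over all peaks). Near the gene end lay 1 peak with a window of 500 bases and 7 with 5000 bases, in place of 3. The settings admit fewer or more peaks or bases, and the cause of the changes was not tested further.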
